A study of Mus musculus with 5 samples.

Results

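Cytochrome P450 enzymes of families 1 to 4 were followed in mouse liver tumours with and without late Prox1 overexpression. Members were taken as genes whose mouse symbol is Cyp, a family number from 1 to 4, a subfamily letter and a gene number, with a mean of at least 10 normalised counts over the libraries. The symbol rule matched 75 genes, of which 62 passed the minimum, out of 17105 genes tested and 55397 genes in the table. The 62 members, all protein coding, fell into 19 subfamilies. Just inside the minimum lay Cyp2j13 and Cyp2j8, with means of 11.5 and 11.99, and just outside lay Cyp4f40 and Cyp2c65, with means of 8.36 and 7.28. The other 11 genes outside were Cyp2b19, Cyp2b23, Cyp2c66, Cyp2d34, Cyp2j7, Cyp2j11, Cyp2j12, Cyp2t4, Cyp2w1, Cyp4a29 and Cyp4f37. The rule also leaves out pseudogenes and genes whose symbol ends in a further letter, such as Cyp4a12a and Cyp3a41a.

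The tumours were dissected from livers of female C57BL/6N mice that had received plasmids by hydrodynamic tail vein injection at 8 weeks of age. All animals carried Akt and the NOTCH intracellular domain (NICD) in transposon plasmids under the EF1a promoter (10 µg), with Sleeping Beauty transposase (4 µg), a combination used to model cholangiocarcinoma (CCA), a cancer with bile duct features. The third plasmid was either an empty vector with GFP (Control, 2 libraries) or FLAG-tagged mouse Prox1 with GFP (Prox1 OE, 3 libraries), both behind a doxycycline-dependent promoter. Feeding with 6.25% doxycycline food began on day 21 and induced Prox1 between weeks 3 and 4. The labels call the cells transformed hepatocytes, but the samples were whole tumour pieces, and collection came either after a week of induction or at the humane endpoint, without a record of which tumour had which. The labels do not state that replicates came from separate animals, so p-values measure only the spread between these libraries.

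P450 enzymes of families 1 to 3 sit in the endoplasmic reticulum of hepatocytes and oxidise drugs, toxins and steroids, while family 4 enzymes mostly hydroxylate the ends of fatty acids and eicosanoids. They need haem and receive electrons from the reductase Por, and their genes are induced through the receptors Ahr, Nr1i3 (CAR), Nr1i2 (PXR) and Ppara. In healthy liver many are concentrated in hepatocytes around the central vein, and several differ between the sexes. Most lie in tandem arrays of similar genes, so that reads of close copies can be hard to assign.

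Libraries held 48740863 to 56629477 reads, and 1 read was worth 0.822 to 1.18 normalised counts. Normalised counts of Prox1 itself were 4153 and 4664 in Control against 48090, 11113 and 8231 in replicates 1 to 3 of Prox1 OE, with an adjusted p of 0.0607. The Prox1 OE libraries thus lay above both Control libraries, with replicate 1 far above the others. Hepatocyte markers were present in every library, summing to 1645145 and 2356828 normalised counts in Control and to between 4640132 and 6533552 in Prox1 OE, and 10 of 14 rose, with a median log2 fold change of 1.44. Of 9 cholangiocyte markers 8 fell (median -1.47), and the remaining marker, Spp1, did not pass.

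The members mostly rose with Prox1 OE. Of 62 members, 42 (67.7%) were higher, where 17.1% of all genes tested were higher, and 2 (3.23%) were lower, where 16.2% of all genes were lower. The other 18 did not pass the threshold, and 14 of them had a positive log2 fold change. The median log2 fold change was 1.55 over the members and -0.02 over all genes tested, and 36 members (58.1%) were higher by at least 1 log2 unit, against 8.35% of all genes. All Prox1 OE libraries lay above both Control libraries for 48 members (77.4%), against 30.9% of all genes, and below them for 3 members (4.84%), against 32.4% of all genes. In 4 members the Control mean was under 10 (Cyp2g1, Cyp3a16, Cyp3a44 and Cyp4f39), so that the minimum was met through the Prox1 OE libraries. Without Control replicate 1, 23 members were higher and 1 lower, with 1158 genes called in all in place of 5702, and without Control replicate 2 the values were 33, 1 and 2270.

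These are bulk samples, in which fewer cells of a type and less RNA per cell cannot be told apart. After centring each library on its mean log2 hepatocyte marker level, 12 members were higher, against 0.737% of all genes, and 10 were lower, against 73.7% of all genes. On that scale the median was 0.16 for the members and -1.41 for all genes. The 12 were Cyp1a2, Cyp2a4, Cyp2a5, Cyp2a22, Cyp2b9, Cyp2b10, Cyp2b13, Cyp2c29, Cyp2c55, Cyp2d12, Cyp2f2 and Cyp3a11. Before centring, the markers themselves ran from 0.31 (Fga) to 2.72 (Tat) in log2 fold change, so the centre depends on the markers used. Cyp2f2, Cyp3a11 and Cyp2c55 had the smallest centred values of the 12 (0.69, 0.79 and 1.00), and whether they exceed that spread was not tested. When libraries were scaled by their total reads, which moved the median of all genes to -0.44, 37 members were higher and 3 lower, beside 8.62% and 39.9% of all genes. On recovered reads, DESeq2 called 43 members higher and 2 lower, beside 20.3% and 18.6% of all genes, and edgeR 42 and 2, beside 18.0% and 15.7%.

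**Figure D1:**
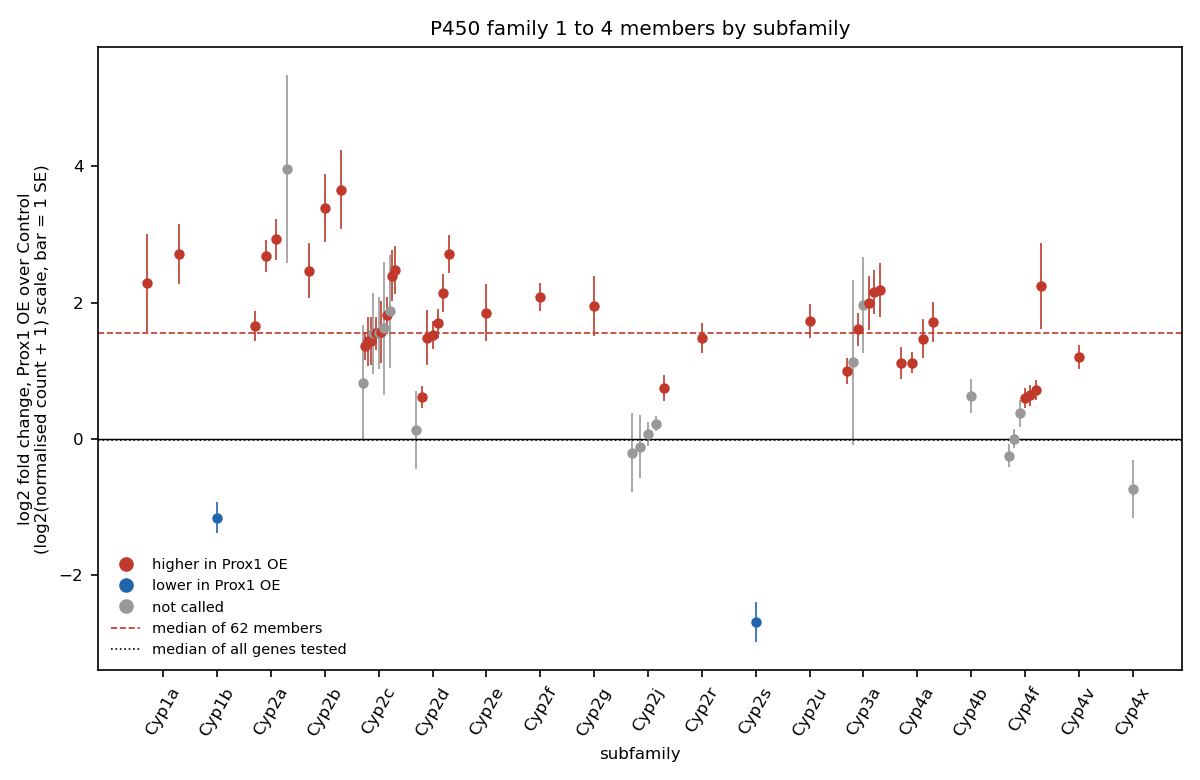
Log2 fold change of each of the 62 members (Prox1 OE over Control, points, with 1 standard error) by subfamily, coloured by call. Many subfamilies sit around the member median of 1.55, Cyp2j has a median of 0.08 and Cyp4f of 0.60, and Cyp1b1 and Cyp2s1 are the 2 members called lower.

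As a share of all reads, the members took 0.358% and 0.477% in Control against 0.951%, 0.880% and 1.12% for replicates 1 to 3 of Prox1 OE. Their summed normalised counts were 155030 and 218399 in Control and 546057, 506191 and 731992 in Prox1 OE, 3.19 times the Control mean. The libraries also differed within groups. Control replicate 2 exceeded Control replicate 1 for 51 of 62 members, and replicate 3 was the highest Prox1 OE library for 41. Hepatocyte marker sums were likewise higher in Control replicate 2 and highest in Prox1 OE replicate 3; their part in the members' order was not tested.

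The promoters of the 3 Cyp2b genes, the subfamily with the highest median, are printed because they show how close its members are. Each run holds the 250 bases upstream of the start in RefSeq (GRCm38.p6), 5′ to 3′ on the plus strand, which is the strand of the genes. Capitals mark AGGTCA, a motif bound by nuclear receptors. The windows are chr7:26173159-26173408 for Cyp2b9, chr7:26061245-26061494 for Cyp2b13 and chr7:25897408-25897657 for Cyp2b10.
Cyp2b9: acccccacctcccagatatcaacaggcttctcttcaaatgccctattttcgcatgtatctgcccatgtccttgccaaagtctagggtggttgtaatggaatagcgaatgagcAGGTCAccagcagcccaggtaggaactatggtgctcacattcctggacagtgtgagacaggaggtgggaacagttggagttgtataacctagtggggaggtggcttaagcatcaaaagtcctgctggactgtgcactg
Cyp2b13: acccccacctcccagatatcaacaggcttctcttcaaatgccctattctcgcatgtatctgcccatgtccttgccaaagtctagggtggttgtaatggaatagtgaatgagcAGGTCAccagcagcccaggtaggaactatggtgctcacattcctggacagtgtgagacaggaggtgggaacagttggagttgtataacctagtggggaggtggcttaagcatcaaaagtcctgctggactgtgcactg
Cyp2b10: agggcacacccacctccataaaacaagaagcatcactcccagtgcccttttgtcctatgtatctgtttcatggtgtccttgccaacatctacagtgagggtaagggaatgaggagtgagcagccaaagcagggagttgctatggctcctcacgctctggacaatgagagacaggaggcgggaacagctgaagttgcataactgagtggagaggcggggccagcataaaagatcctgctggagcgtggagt
The Cyp2b9 and Cyp2b13 windows were identical at 248 of 250 aligned positions (99.2%), and both hold AGGTCA starting 138 bases before the start. Cyp2b10 matched either at 182 of 260 aligned columns (70.0%) and has no AGGTCA in its window.

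Promoter windows of 300 bases, ending 50 bases after the start, were found for 51 of the 62 members and for 27025 genes in all, and 8 motifs were searched on both strands. TATAAA was in 25 of 51 member windows (49.0%), against 15.7% of all windows. AGGTCA was in 15 (29.4%), against 18.1% of all. CAAAGTCCA, a sequence bound by HNF4A, was in 7 (13.7%), against 0.555% of all. The other counts were for TGTTTAC, a forkhead factor core (6 members, 11.8%, against 4.05%), for TTGCAA, a C/EBP motif (5 members, 9.80%, against 7.09%), and for GCGTG, the core bound by AHR (11 members, 21.6%, against 35.2%). A direct repeat of AGGTCA spaced by 1 base, which contains the single AGGTCA motif, and the HNF1 palindrome, GTTAAT followed after 1 base by its reverse complement, were in 0 member windows, against 0.0481% and 0.0111% of all. Of the 51 members with a window 33 (64.7%) were higher, as were 19 of 25 with TATAAA, 14 of 15 with AGGTCA, 4 of 7 with CAAAGTCCA, 4 of 6 with TGTTTAC, 3 of 5 with TTGCAA and 6 of 11 with GCGTG, given without a test. A match of letters is a description and not a binding site, and tandem copies can have similar promoter sequences, so that the member windows are not independent.

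The 7 CAAAGTCCA windows are shown with 20 bases on either side, since they fall in the Cyp2c and Cyp3a arrays, all on the minus strand. Capitals mark CAAAGTCCA. The spans are chr19:39812831-39812879 (Cyp2c40), chr19:39649139-39649187 (Cyp2c67), chr19:39741150-39741198 (Cyp2c68), chr19:39886816-39886864 (Cyp2c69), chr19:40187322-40187370 (Cyp2c70), chr5:145879935-145879983 (Cyp3a11) and chr5:145469794-145469842 (Cyp3a16).
Cyp2c40: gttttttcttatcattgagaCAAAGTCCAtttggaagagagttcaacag
Cyp2c67: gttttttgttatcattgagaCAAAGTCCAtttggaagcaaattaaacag
Cyp2c68: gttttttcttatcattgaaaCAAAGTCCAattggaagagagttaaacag
Cyp2c69: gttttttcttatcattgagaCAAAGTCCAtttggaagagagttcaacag
Cyp2c70: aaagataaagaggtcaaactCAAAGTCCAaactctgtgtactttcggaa
Cyp3a11: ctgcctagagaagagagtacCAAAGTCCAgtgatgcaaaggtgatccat
Cyp3a16: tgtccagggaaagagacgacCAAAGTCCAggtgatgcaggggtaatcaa
Of these 7 genes, Cyp2c67, Cyp2c68, Cyp2c70 and Cyp3a11 were higher and the other 3 did not pass. Hnf4a, which encodes the hepatocyte factor that binds such letters, had 8414 and 10194 normalised counts in Control and 19482, 18576 and 24052 in Prox1 OE (log2 fold change 1.15, SE 0.16, adjusted p = 0.00333).

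Cyp1a2 and Cyp1a1 lie beside each other on chromosome 9 (57676937 to 57703824, GRCm38) and are the classical targets of the aryl hydrocarbon receptor. Cyp1a2, a hepatocyte enzyme that oxidises caffeine and aromatic amines, had 794 and 1546 normalised counts in Control and 6161, 4713 and 13138 in Prox1 OE. The groups were well apart, although replicate 3 was 2.79 times replicate 2, and Cyp1a2 rose by a log2 fold change of 2.71 (SE 0.44, adjusted p = 0.00501). Cyp1a1, which is induced by polycyclic hydrocarbons in many tissues, had 5.75 and 43.2 in Control and 97.1, 64.9 and 91.4 in Prox1 OE. The Prox1 OE values were alike and the Control values were not, and the log2 fold change of 2.29 (SE 0.72) passed with an adjusted p of 0.0448. It was 0.93 (adjusted p = 0.208) without Control replicate 1 and 3.64 (adjusted p = 0.0114) without Control replicate 2, and leaving out Prox1 OE replicate 1, 2 or 3 gave adjusted p-values of 0.0947, 0.0981 and 0.102. It did not pass in edgeR (1.80, adjusted p = 0.0809), without the trend (0.0917) or with no minimum (0.0842).

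Cyp1b1, the sole Cyp1b gene, metabolises oestrogens and polycyclic hydrocarbons and is expressed outside hepatocytes, stellate cells included. It went the other way, with 3911 and 4545 normalised counts in Control and 2575, 1811 and 1468 in Prox1 OE. Every Prox1 OE library lay below both Control libraries, and Cyp1b1 fell by 1.15 on the log2 scale (SE 0.23, adjusted p = 0.00905). The adjusted p was 0.0570 (log2 fold change -1.26) without Control replicate 1 and 0.0690 (-1.04) without Control replicate 2. Of the 8 stellate cell and fibroblast markers, 3 fell (Col1a1, Col1a2 and Col3a1) and 2 rose (Lrat by 1.09 and Reln by 0.55), with a median of -0.15. These collagens make up most of the summed level, which ran from 112662 to 121618 in Control and from 67146 to 77497 in Prox1 OE. No defining marker of that list was near 0, and its part in the Cyp1b1 difference was not tested.

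The Cyp2a and Cyp2b genes share an array on chromosome 7 (25802475 to 27133660) with Cyp2f2, Cyp2g1 and Cyp2s1. Of its 10 members 8 rose and 1 fell, with log2 fold changes from -2.68 to 3.96. Cyp2a5, the mouse coumarin 7-hydroxylase, had 9716 and 6484 normalised counts in Control and 64110, 41858 and 49118 in Prox1 OE. It was one of few members higher in Control replicate 1 than in replicate 2, and it rose by 2.68 log2 units (SE 0.24, adjusted p = 0.00187). Cyp2a4, a steroid 15-alpha-hydroxylase more abundant in female liver, had 1614 and 2300 in Control and 22121, 10658 and 13505 in Prox1 OE. The rise was of similar size, 2.93 log2 units (SE 0.30, adjusted p = 0.00234).

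The 250 upstream bases of Cyp2a4 and Cyp2a5 were identical at 245 of 251 aligned columns (97.6%). Of the 100-base windows in their transcripts, 11.2% and 14.4% also occur in another gene, mostly the other member of the pair, so that the split of reads between them is uncertain. The subfamily sum does not depend on that split, but some windows of both genes also occur in the pseudogene Cyp2a21-ps, outside the sum. The sum was 22002 and 25158 in Control and 124674, 90588 and 114952 in Prox1 OE, a ratio of 4.67. Cyp2a12 rose less (log2 fold change 1.66, SE 0.22, adjusted p = 0.00298). Cyp2a22 was uneven, with 13.97 and 757 in Control and 1080, 1753 and 2378 in Prox1 OE. Its log2 fold change of 3.96 (SE 1.38, adjusted p = 0.0617) did not pass. On the log2 scale the Control libraries lay further apart than the group means, and the change was 1.12 (adjusted p = 0.130) without Control replicate 1 and 6.79 (adjusted p = 0.00547) without Control replicate 2.

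Cyp2b10, the standard readout of Nr1i3 activation by phenobarbital-like inducers, had 37.0 and 142 normalised counts in Control and 1596, 662 and 757 in Prox1 OE. Even the lowest Prox1 OE library was far above both Control libraries, and the rise of 3.66 log2 units (SE 0.58, adjusted p = 0.00452) was the largest among the members that passed. Without Control replicate 1 it was 2.70 (adjusted p = 0.0337), below Cyp2a5 (2.97, adjusted p = 0.0194), and without Control replicate 2 it was 4.61. Cyp2b13 had 42.7 and 147 in Control and 714, 684 and 1227 in Prox1 OE (3.39, SE 0.50, adjusted p = 0.00374). Cyp2b9, which like Cyp2b13 is more abundant in female liver, had 412 and 1026 in Control and 3013, 2969 and 5260 in Prox1 OE (2.47, SE 0.40, adjusted p = 0.00482). For these genes Control replicate 2 was well above Control replicate 1, yet below every Prox1 OE library. Without Control replicate 1 the changes of Cyp2b13 and Cyp2b9 were 2.51 (adjusted p = 0.0299) and 1.81 (0.0355), and without Control replicate 2 they were 4.27 and 3.13 (adjusted p = 0.0114 for each). Of the windows in Cyp2b13, 9.29% are shared with Gm45225 and Cyp2b9, while none in Cyp2b10 is shared.

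Cyp2f2, known for bioactivating naphthalene and expressed in periportal hepatocytes and airway club cells, had 14699 and 18433 normalised counts in Control and 68491, 58751 and 84066 in Prox1 OE. It rose by 2.08 log2 units (SE 0.20, adjusted p = 0.00224) with little spread within groups. Cyp2g1, best known from olfactory tissue, was scarce at 11.5 and 5.09 in Control and 31.7, 30.7 and 35.9 in Prox1 OE (1.95, SE 0.44, adjusted p = 0.0153), and did not pass without Control replicate 2 (1.43, adjusted p = 0.0956). At the edge of the same array Cyp2s1, an enzyme of epithelia outside the liver (25802475 to 25816913, minus strand), had 166 and 183 in Control and 27.6, 31.9 and 20.8 in Prox1 OE. The groups were clearly separated, and Cyp2s1 fell by 2.68 log2 units (SE 0.30, adjusted p = 0.00244). Its direction was opposite to that of Cyp2b10, the next member along the chromosome. The cholangiocyte markers Krt19 (-2.41) and Krt7 (-2.50) fell by similar amounts, and their relation to Cyp2s1 was not tested.

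**Figure D2:**
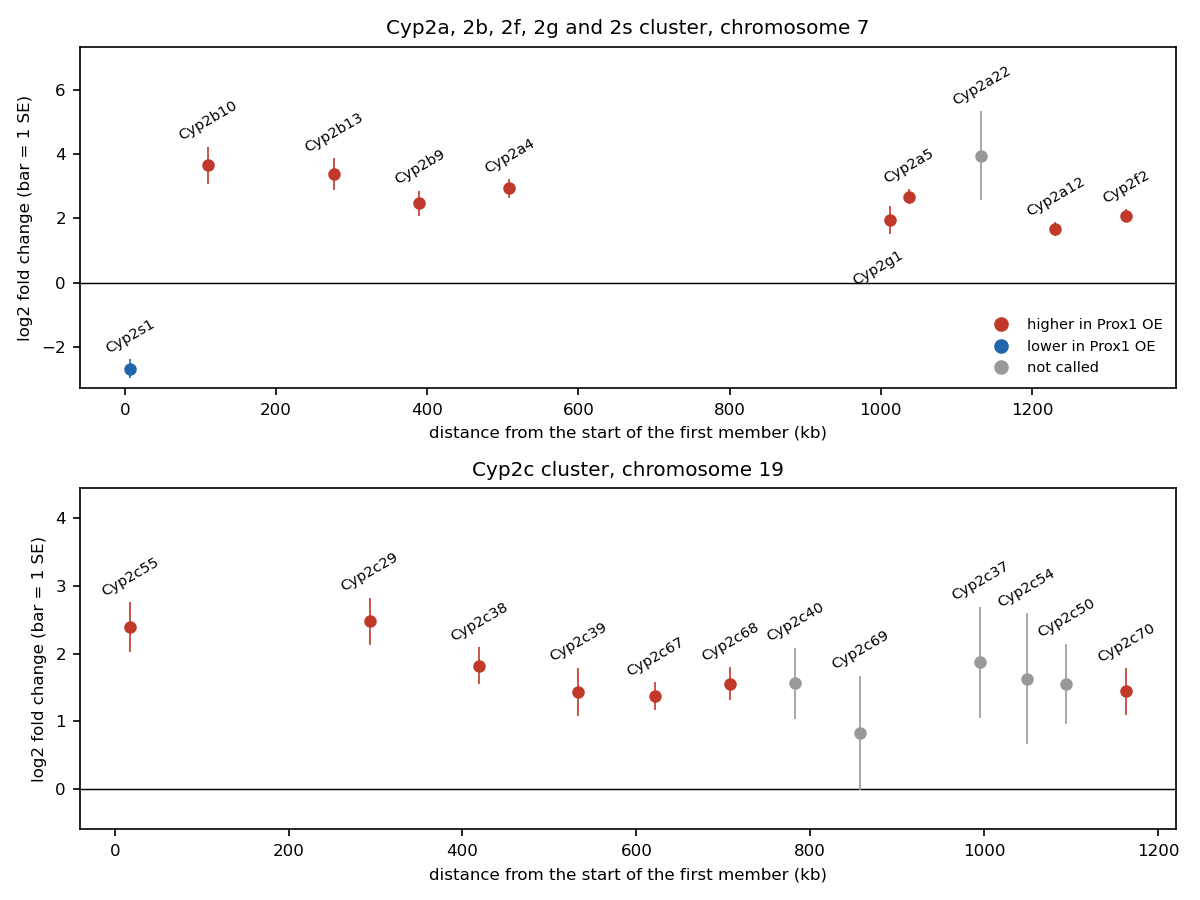
Log2 fold change (Prox1 OE over Control, 1 standard error) of members against their distance in kb from the start of the first member, for the mixed Cyp2 array on chromosome 7 and the Cyp2c array on chromosome 19. Cyp2s1 at the edge of the first array is lower (-2.68) beside Cyp2b10 (3.66), and the 5 members not called in the second array are neighbours.

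Cyp2c, with 13 members, was the largest subfamily, and its enzymes include epoxygenases of arachidonic acid and a bile acid hydroxylase. Of these 8 rose, none fell and 5 did not pass, with a median of 1.56. Cyp2c29, an inducible epoxygenase, had 2403 and 5272 normalised counts in Control and 15391, 18756 and 27080 in Prox1 OE. It rose by 2.48 log2 units (SE 0.35, adjusted p = 0.00338), with no overlap of the groups. Cyp2c55 had 143 and 298 in Control and 1621, 953 and 837 in Prox1 OE (2.40, SE 0.37, adjusted p = 0.00428). Cyp2c70, which makes the rodent muricholic acids, had 3163 and 5153 in Control and 7257, 10848 and 16659 in Prox1 OE. It rose by 1.44 (SE 0.35, adjusted p = 0.0184), with Prox1 OE replicate 1 nearest to the Control range. Cyp2c70 did not pass without Control replicate 1 (1.09) or without Prox1 OE replicate 2 (1.45, adjusted p = 0.0652).

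The 5 members that did not pass, Cyp2c40, Cyp2c69, Cyp2c37, Cyp2c54 and Cyp2c50, are consecutive members of the chromosome 19 array (39007019 to 40187333). In all of them Prox1 OE replicate 3 was the highest library by a wide margin. Cyp2c37 had 467 and 953 normalised counts in Control and 700, 3175 and 6545 in Prox1 OE. Cyp2c54 had 197 and 482 in Control and 243, 1011 and 3519 in Prox1 OE. Cyp2c50 had 1429 and 3476 in Control and 3384, 5762 and 14335 in Prox1 OE. In these 3 genes, epoxygenases of pericentral hepatocytes, Prox1 OE replicate 1 fell inside the Control range and the other 2 replicates above it. The log2 fold changes were 1.87 (adjusted p = 0.118), 1.63 (0.232) and 1.55 (0.0813), so that they exceeded 1 without passing. Without Prox1 OE replicate 1 the adjusted p-values were 0.00698, 0.0265 and 0.0323, and all 3 passed. Without Prox1 OE replicate 3 they were 0.255, 0.506 and 0.141, with log2 fold changes of 1.16, 0.68 and 0.99. Cyp2c69 had 421 and 288 in Control and 256, 376 and 2447 in Prox1 OE, where replicate 1 lay below both Control libraries and replicate 2 between them. Its log2 fold change of 0.82 (adjusted p = 0.483) was 1.46 (0.204) without Prox1 OE replicate 1 and turned to -0.17 (0.694) without replicate 3. Close copies are shared in this array, with up to 44.1% of windows in Cyp2c40 and 36.3% in Cyp2c69 found in other Cyp2c genes. The Cyp2c sum was 14550 and 24357 in Control and 47842, 59142 and 102204 in Prox1 OE, 3.58 times the Control mean.

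Cyp2e1 (chromosome 7, 140763739 to 140774987), the pericentral enzyme that oxidises ethanol and paracetamol, had the highest mean level per kb of exon in both groups. Its normalised counts were 14115 and 26844 in Control and 43979, 70476 and 112242 in Prox1 OE. The groups did not overlap, although replicate 3 of Prox1 OE was 2.55 times replicate 1, and the log2 fold change was 1.85 (SE 0.41, adjusted p = 0.0143). It did not pass without Control replicate 1 (1.39, adjusted p = 0.132) or without Prox1 OE replicate 2 (1.85, adjusted p = 0.0545). Of 8 pericentral markers 5 rose (median 1.16), among them Glul and Slc1a2, and of 8 periportal markers 6 rose and 1 fell (median 1.92).

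On the scale of normalised counts per kb of exon, Cyp2e1 stood at 9490 in Control and 35017 in Prox1 OE, and Cyp2f2 followed with 8181 and 34783. Their order differed between libraries and is within the spread, and in Prox1 OE replicate 1 Cyp2e1 was at rank 3, behind Cyp2f2 and Cyp2a5. Cyp2d26 and Cyp2j5 came next in the Control mean, at 5706 and 4781 per kb, but the order from rank 3 down differed between the Control libraries. Cyp2j5 and Cyp2a5 were above Cyp2d26 in Control replicate 1, and Cyp3a11 was above Cyp2j5 in Control replicate 2. In the Prox1 OE mean the third place went to Cyp2a5, which was at rank 7 of the Control mean with 3907 per kb (rank 4 in replicate 1 and rank 9 in replicate 2) and at rank 3 with 24938, ahead of Cyp2d26 (18233) and Cyp3a11 (16582). Cyp2j5 was at rank 4 of the Control mean and rank 9 of the Prox1 OE mean, and Cyp4f14 at ranks 8 and 16. Exon length was that of all annotated exons together, so levels per kb are approximate.

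**Figure D3:**
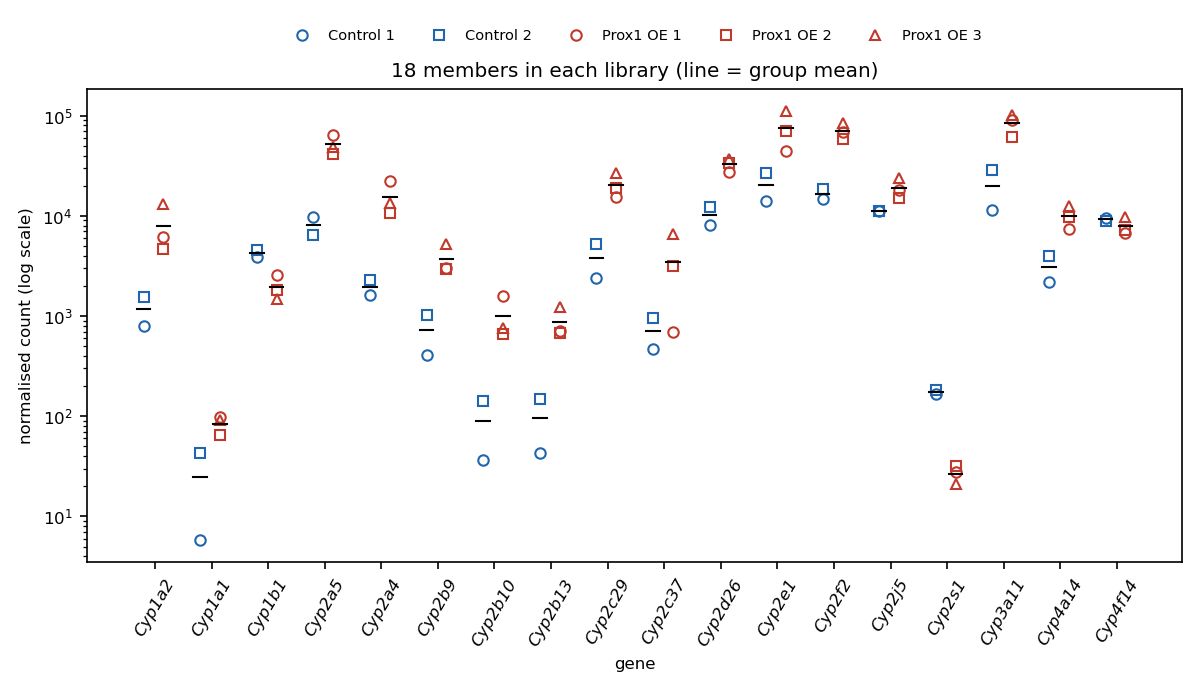
Normalised count (log scale) of 18 members in each library, with group means as lines (Control blue, Prox1 OE red). Cyp2b10 rises from 37.0 and 142 to between 662 and 1596, Cyp2s1 falls from 166 and 183 to between 20.8 and 31.9, and Prox1 OE replicate 1 of Cyp2c37 lies inside the Control range.

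Of 7 Cyp2d members, relatives of the human drug-metabolising CYP2D6, 6 rose and none fell, with a median of 1.53. Cyp2d26 was the most abundant, with 8180 and 12272 normalised counts in Control and 27603, 33326 and 37094 in Prox1 OE (1.69, SE 0.21, adjusted p = 0.00273). Cyp2d12 had the largest change, from 16.4 and 17.8 to 112, 138 and 104 (2.71, SE 0.28, adjusted p = 0.00234). Both separated the groups cleanly. Cyp2d9, a testosterone 16-alpha-hydroxylase more abundant in male liver, had 2364 and 3213 in Control and 14236, 5129 and 6340 in Prox1 OE. Prox1 OE replicate 1 was the highest here, and the rise of 1.49 (SE 0.40, adjusted p = 0.0261) did not pass without Control replicate 1 (1.27, adjusted p = 0.170) or without Control replicate 2 (1.71, adjusted p = 0.0728). Cyp2d22 rose least, by 0.62 (SE 0.16, adjusted p = 0.0244), and had -0.78 after centring on hepatocyte markers and 0.18 (adjusted p = 0.314) when scaled by total reads. Its adjusted p was 0.230 and 0.0503 without Control replicate 1 or 2, and 0.0747 and 0.0607 without Prox1 OE replicate 2 or 3. Cyp2d11 overlapped between the groups (0.13, adjusted p = 0.879). The Cyp2d array lies on chromosome 15 (82370527 to 82794294), and its summed level was 2.75 times that of Control.

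Cyp2j was the exception among the larger Cyp2 subfamilies. Its 5 members lie together on chromosome 4 (96027534 to 96664154), their median was 0.08, and 1 passed. Cyp2j5, an arachidonic acid epoxygenase abundant in liver and kidney, had 11146 and 11276 normalised counts in Control and 18295, 15198 and 23788 in Prox1 OE. The rise of 0.74 (SE 0.19, adjusted p = 0.0233) did not pass without Control replicate 1 (0.74, adjusted p = 0.150) or Control replicate 2 (0.75, adjusted p = 0.121) or when scaled by total reads (0.31, adjusted p = 0.133), and the sign turned after centring on hepatocyte markers (-0.65). Cyp2j6 had 8649 and 9104 in Control and 10200, 10956 and 10003 in Prox1 OE, a log2 fold change of 0.23 (SE 0.11, adjusted p = 0.160) with no overlap, which turned to -0.21 when scaled by total reads and to -1.17 after centring. Cyp2j9, Cyp2j8 and Cyp2j13 overlapped between the groups, with log2 fold changes from -0.20 to 0.08. None of the Cyp2j members shared a window with another gene.

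Cyp2r1, the vitamin D 25-hydroxylase, had 148 and 164 normalised counts in Control and 448, 348 and 543 in Prox1 OE (1.49, SE 0.22, adjusted p = 0.00387). Cyp2u1, a long-chain fatty acid hydroxylase, had 105 and 103 in Control and 317, 284 and 462 in Prox1 OE (1.73, SE 0.24, adjusted p = 0.00339). Neither gene lies in an array, and both rose with no overlap and close Control values.

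In the Cyp3a subfamily, whose main liver form is the Nr1i2 target Cyp3a11, 5 of 7 members rose and none fell, with a median of 1.97. Cyp3a11 (chromosome 5, 145854426 to 145879964) had 11367 and 28750 normalised counts in Control and 91491, 60891 and 100971 in Prox1 OE. Control replicate 2 was well above Control replicate 1 but under every Prox1 OE library. The rise of 2.19 (SE 0.39, adjusted p = 0.00683) had an adjusted p of 0.0563 without Control replicate 1 (1.52) and was 2.86 (adjusted p = 0.0114) without Control replicate 2. Cyp3a25 changed by nearly as much (2.16, SE 0.32, adjusted p = 0.00384). Cyp3a13, which lies apart from the array and is also expressed in intestine, had 2471 and 3411 in Control and 4852, 5870 and 6856 in Prox1 OE. It rose by 1.00 (SE 0.19, adjusted p = 0.00841), was at 0.77 (adjusted p = 0.0887) without Control replicate 1, and turned to -0.40 after centring. Cyp3a16 and Cyp3a44 were scarce, at 4.11 to 6.78 in Control, and were highest in Prox1 OE replicate 3 at 49.8 and 69.4. Cyp3a41a, which the rule leaves out but which is a female-predominant relative, had 261 and 186 in Control and 108, 86.1 and 601 in Prox1 OE. The libraries disagreed in direction (-0.31, adjusted p = 0.778). Its value was 0.05 without Prox1 OE replicate 1, 0.21 without replicate 2 and -1.18 (adjusted p = 0.0259) without replicate 3.

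Cyp4a enzymes hydroxylate the omega end of fatty acids and are standard readouts of Ppara. All 4 members rose, with a median of 1.29. Cyp4a14 had 2186 and 3980 normalised counts in Control and 7345, 9835 and 12460 in Prox1 OE (1.71, SE 0.29, adjusted p = 0.00580). Cyp4a10 had 1620 and 2401 in Control and 3938, 5338 and 7736 in Prox1 OE (1.47, SE 0.29, adjusted p = 0.00895). Groups did not overlap for either gene, and without Control replicate 1 the values were 1.278 (adjusted p = 0.0506) and 1.18 (adjusted p = 0.0858). Cyp4a31 and Cyp4a32 changed less, by 1.12 each, and both had -0.28 after centring. Cyp4a32 did not pass without Control replicate 1 (0.95, adjusted p = 0.124) or when scaled by total reads (0.69, adjusted p = 0.0557). The male-predominant Cyp4a12a, outside the rule, had 2610 and 2557 in Control and 8440, 5752 and 14499 in Prox1 OE (1.78, SE 0.33, adjusted p = 0.00785). Without Control replicate 1 its adjusted p was 0.0612 (1.80). Cyp4b1, known from lung, and Cyp4x1, known from brain, share the chromosome 4 array of Cyp4a (115106323 to 115647723) and did not pass. Cyp4b1 had 189 and 266 in Control and 326, 284 and 455 in Prox1 OE (0.63, adjusted p = 0.0949), with a value of -0.76 after centring. Cyp4x1 had 32.9 and 22.0 in Control and 20.5, 16.5 and 11.6 in Prox1 OE (-0.74, adjusted p = 0.218).

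Cyp4f enzymes inactivate leukotrienes and hydroxylate long fatty acids, and their 7 members were spread around a median of 0.60. Cyp4f14, a leukotriene B4 hydroxylase of liver and the most abundant of them, had 9581 and 8812 normalised counts in Control and 6694, 7220 and 9692 in Prox1 OE. The groups overlapped, with Prox1 OE replicate 3 above both Control libraries (-0.24, SE 0.17, adjusted p = 0.310). When libraries were scaled by their total reads Cyp4f14 was lower (-0.67, adjusted p = 0.00670), as it was after centring (-1.64, adjusted p = 7.33e-05). Cyp4f13, Cyp4f15 and Cyp4f17 rose by 0.72, 0.60 and 0.64, and after centring they stood at -0.68, -0.80 and -0.75. Scaled by total reads they did not pass (0.29, 0.16 and 0.21, with adjusted p-values of 0.118, 0.351 and 0.305). Without Control replicate 1 their adjusted p-values were 0.0961, 0.159 and 0.185, without Control replicate 2 they were 0.0590, 0.0924 and 0.0741, and Cyp4f15 also missed the threshold without Prox1 OE replicate 2 (0.0650). Cyp4f18, the leukotriene B4 hydroxylase of neutrophils, had 293 and 272 in Control and 401, 415 and 296 in Prox1 OE. It did not pass (0.38, adjusted p = 0.182) and was at -0.05 when scaled by total reads and -1.02 after centring. None of 5 neutrophil markers tested passed, their summed level was 741 to 1129 in Control and 978 to 1296 in Prox1 OE, and Ly6g was at or under 3 reads in every library.

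Cyp4f39, which acts on very long fatty acids of skin, had 4.11 and 8.48 normalised counts in Control and 49.1, 14.2 and 46.3 in Prox1 OE (2.25, SE 0.63, adjusted p = 0.0316). It was the largest change in its subfamily and lost its call when Control replicate 1 (1.80, adjusted p = 0.190), Control replicate 2 (2.69, adjusted p = 0.0684), Prox1 OE replicate 1 (1.94, adjusted p = 0.0701) or Prox1 OE replicate 3 (1.99, adjusted p = 0.0916) was left out. The Cyp4f sum was 15479 and 15098 in Control and 14701, 16270 and 19353 in Prox1 OE. This ratio of 1.10 had overlapping groups and was 0.809 when scaled by total reads. Cyp4v3, a fatty acid hydroxylase whose human counterpart is mutated in Bietti dystrophy, had 4593 and 4977 in Control and 11629, 8862 and 13029 in Prox1 OE. It rose by 1.21 (SE 0.17, adjusted p = 0.00353) and was at -0.19 after centring.

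**Figure D4:**
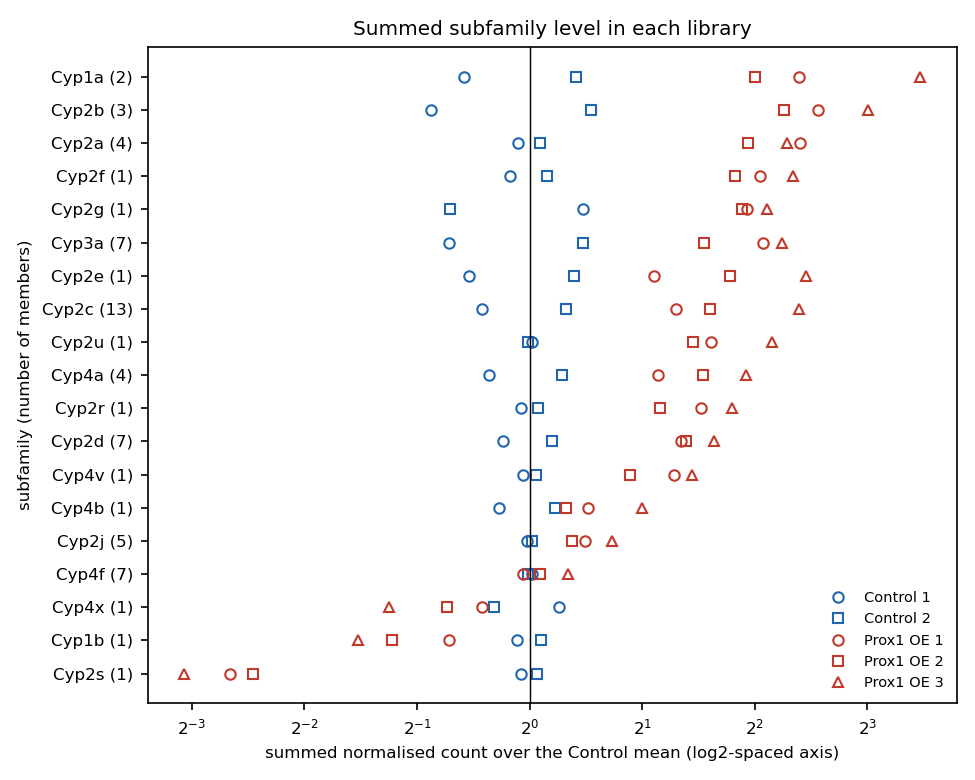
Summed normalised count of each subfamily in each library, divided by the Control mean (log2-spaced axis, number of members in brackets). Cyp1a, Cyp2b and Cyp2a stand at 6.77, 6.23 and 4.67, an order that changes when 1 Control library is left out (without Control replicate 2, Cyp2b is 11.4 and Cyp3a 6.48, and without Control replicate 1, Cyp2b is 4.28 and Cyp2g 6.44). Cyp4f overlaps at 1.10, and Cyp4x, Cyp1b and Cyp2s lie below 1.

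Arrays did not move as blocks of 1 value. The 8 arrays with at least 2 members no more than 1 Mb apart held 54 members, and the chromosome 7 array held both the highest and the lowest called member. In the other 7 arrays none of the members was called lower. Of the 40 members with at most 5% of 100-base windows shared with another gene, 28 were higher and 2 lower, and of the 22 with a larger share 14 were higher.

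A list of 14 genes covers the supply of electrons to P450 enzymes and the making and breakdown of haem. Of these 10 rose, none fell and 4 did not pass (Ppox, Cpox, Fech and Hmox1), with a median of 0.88, while 17.1% of all genes were called higher. Por, the reductase that feeds all microsomal P450 enzymes, had 3577 and 4387 normalised counts in Control and 5822, 9144 and 9131 in Prox1 OE (0.99, SE 0.22, adjusted p = 0.0135). The electron donor Cyb5a rose by 1.37 (SE 0.20, adjusted p = 0.00378), and Alas1, the first enzyme of haem synthesis, by 1.04 (SE 0.19, adjusted p = 0.00732). Hmox1, which degrades haem, had -0.35 (SE 0.11, adjusted p = 0.0521), with every Prox1 OE library below both Control libraries. All 14 values lay below the member median of 1.55.

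Receptors differed from one another. Of 11 receptors and partners tested 6 rose and none fell. Nr1i3 had 613 and 1298 normalised counts in Control and 1748, 3244 and 3966 in Prox1 OE (1.66, SE 0.40, adjusted p = 0.0190). Nr1i2 had 1988 and 2168 in Control and 3845, 4329 and 4877 in Prox1 OE (1.06, SE 0.13, adjusted p = 0.00275), and their partner Rxra rose by 0.76 (SE 0.14, adjusted p = 0.00684). Both receptors separated the groups. Ahr, the receptor for the Cyp1 inducers, had 2265 and 2660 in Control and 1724, 1665 and 2177 in Prox1 OE, all below Control without passing (-0.41, SE 0.15, adjusted p = 0.0750). Ppara had 767 and 611 in Control and 1577, 725 and 971 in Prox1 OE, with overlap (0.60, SE 0.30, adjusted p = 0.167).

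Targets of these receptors that are not P450 genes were counted beside them. Of the 4 Nr1i3 or Nr1i2 targets, Gstm3, Abcc2 and Abcc3 rose (2.63, 1.05 and 1.04) and Gadd45b fell (-0.97). Of the 2 tested Ahr targets, Nqo1, a quinone reductase also driven by the oxidative stress factor NRF2, rose (1.88) and Tiparp did not pass (-0.32). Of 6 Ppara targets 4 rose and none fell, with a median of 0.96. Liver factors known from P450 promoters rose in 6 of 12 cases, Hnf4a included, and Foxa1 and Onecut1 fell (-0.78 and -1.87). Among growth hormone pathway genes linked to sex-biased expression, Ghr and Cux2 rose (1.23 and 1.05), the feedback inhibitor Socs2 fell (-1.09) and the other 4 of 7 did not pass.

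The other P450 families, which serve sterol, bile acid, retinoid and vitamin D metabolism, had 14 genes tested, of which 5 rose and 2 fell, with a median of 0.61. Of all genes tested 17.1% were higher and 16.2% lower. Cyp7a1 (2.09), Cyp8b1 (2.13), Cyp7b1 (0.67), Cyp27a1 (1.73) and Cyp17a1 (2.66) rose. Cyp39a1, an oxysterol 7-alpha-hydroxylase, and Ptgis, the prostacyclin synthase, fell (-0.63 and -0.69). These counts and medians are given beside those of families 1 to 4 without a test of the difference.

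**Figure D5:**
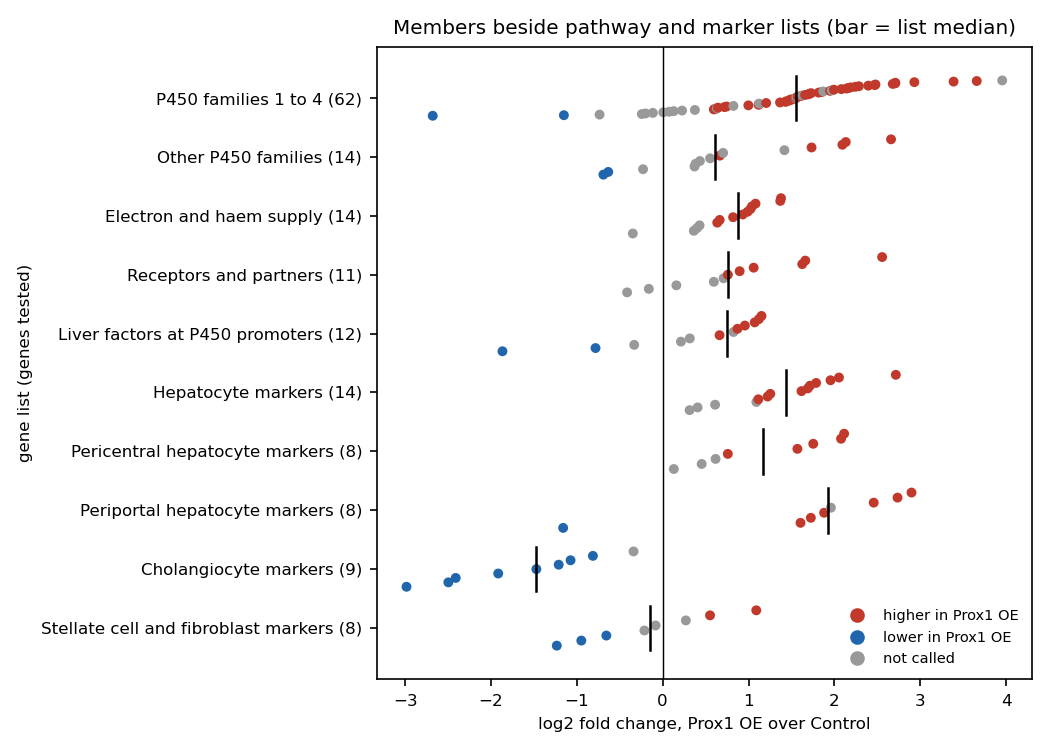
Log2 fold change (Prox1 OE over Control) of the 62 members and of genes in 9 other lists, 1 point a gene, coloured by call, with the list median as a bar. The member median (1.55) lies near that of hepatocyte markers (1.44), the electron and haem genes sit lower (0.88), and cholangiocyte markers are negative (-1.47).

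For further cell types the counts are set beside the 17.1% of all genes that were called higher. Of 6 macrophage markers 1 rose (Clec4f) and none fell, which is near that share, but their median log2 fold change was 0.85. Their summed level ran from 7589 to 8609 in Control and from 12090 to 17720 in Prox1 OE. Of 6 endothelial markers 2 rose (Clec4g and Stab2) and 4 did not pass, with a median of 0.09. Those 4 were Kdr (0.44), Lyve1 (-0.53), Cdh5 (-0.33) and Pecam1 (-0.27). For Cdh5 and Pecam1 every Prox1 OE library lay below both Control libraries. Of 5 lymphocyte markers tested 4 rose. Their part in any member's change was not tested.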

How the data were processed

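Bulk RNA from 5 liver tumours (2 Control, 3 Prox1 OE) was sequenced as dUTP libraries with paired 100-base reads, which the authors mapped to mm10 with STAR. How reads shared by gene copies were counted is not given in the sources used here. The deposited signal per gene and library is a normalised count, made by the authors from read counts divided by DESeq2 size factors. Each value was a whole multiple of 1 read (tolerance 0.001 reads), which gave back whole reads for 100% of values, with 48740863 to 56629477 reads a library. A deposited table of the authors' own comparison (mean, shrunken log2 fold change, p-value and adjusted p-values) was not used, and 0 columns were left unassigned. Symbols came from an identifier table that matched 55137 of 55397 genes (99.5%), and coordinates and exons from GENCODE (GRCm38).

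Genes with a mean of at least 10 were tested two-sided with limma 3.58.1 (R 4.3.3, eBayes with trend) on log2(normalised count + 1), with Benjamini-Hochberg adjustment over 17105 genes and a threshold of 0.05. This scale understates changes of low genes. Every p and adjusted p in the text comes from that fit unless another is named. The fit had no covariate. Alternatives were edgeR 4.0.16 and DESeq2 1.42.0 on recovered reads, other scalings, pseudocounts of 0.1 and 10, no minimum or one of 50, no trend, a replicate block and leaving out each library. The replicate block left out Prox1 OE replicate 3, which has no Control library of the same number. Scripts were checked on simulated counts with known changes. Values were given for the most abundant and the most changed member of each subfamily, for receptor, zone and sex readouts, and for others by count and range. Members, lists, motifs and this naming rule were chosen with earlier results of these data known, so the lists have no test. Further members given with values (Cyp2a12, Cyp2c37, Cyp2c50, Cyp2c54, Cyp2c55, Cyp2c69, Cyp2c70 and Cyp2j6, for example) were chosen after their values were seen. Sharing between genes was measured as the percent of 100-base windows of the longest coding transcript that occur in a transcript of another gene. Counts of 3 reads or fewer were treated as a floor, and floors cover counting error only.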

Additional observations from a re-analysis of the deposited data

Results flagged for a closer look

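Rows of P450 pseudogenes, which lie outside the members, also carried signal above the Control level. All Prox1 OE libraries lay above both Control libraries for 5 of the 8 pseudogenes with a mean of at least 10, against 30.9% of all genes tested. The other 3, Cyp2a21-ps, Cyp3a63-ps and Cyp4f41-ps, overlapped between the groups and did not pass. Cyp2d37-ps had a mean of 1874 normalised counts in Prox1 OE and 560 in Control (log2 fold change 1.75, adjusted p = 0.00878), and Cyp2d38-ps had 213 and 80.5 (1.39, adjusted p = 0.0303). Cyp2d41-ps had 81.7 and 19.6 (1.93, adjusted p = 0.0111), and Cyp2d36-ps had 75.0 and 15.1 (2.14, adjusted p = 0.0259). Cyp2c52-ps had 43.7 and 24.7 (0.80, adjusted p = 0.0878) and did not pass. These rows lie among coding copies, and 9.86% of the windows of Cyp2d9 are shared with Cyp2d10, Cyp2d12 and Cyp2d41-ps, and how reads were split between such copies was not tested. With groups of 2 and 3 libraries, no library was tested as an outlier.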

How the results depend on the processing

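The count of members called higher was 42 and ran from 33 to 46 over the alternatives other than centring and the libraries left out. The value of 46 came from the replicate block, which also leaves out Prox1 OE replicate 3. edgeR called 42 higher and 2 lower (Cyp1a1 lost, Cyp2c40 gained), DESeq2 43 and 2 (Cyp3a44 gained), TMM factors, upper-quartile factors and both pseudocounts 42 and 2, a minimum mean of 50 gave 39 and 2 of 53 members tested, no minimum 38 and 2, and no trend 33 and 2. Cyp1a1, Cyp2c23, Cyp2d9 and Cyp4f39 lost their call with no minimum and with no trend, and Cyp2c39, Cyp2c70, Cyp2d22, Cyp2j5 and Cyp4f15 with no trend. Scaling by total reads gave 37 and 3 and a member median of 1.12, and the genes called split into 1475 higher and 6833 lower in place of 2933 and 2769. Centring on the hepatocyte markers called 12739 genes (126 higher), with 12 members higher, 10 lower and a median of 0.16. Leaving out single libraries gave 1158 to 7491 genes called, 23 to 44 members higher, 1 to 2 lower and medians of 1.23 to 1.73. An arm left with 1 Control library is assumed to vary like the other arm.

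Scaled by total reads, the ratios of 5 of the 19 subfamilies moved by less than the spread between replicates (Cyp1a 4.94, Cyp2b 4.63, Cyp2c 2.63, Cyp2e 2.71 and Cyp3a 2.94), and the others became 0.347 (Cyp1b), 3.47 (Cyp2a), 2.04 (Cyp2d), 3.14 (Cyp2f), 2.89 (Cyp2g), 1.08 (Cyp2j), 2.11 (Cyp2r), 0.115 (Cyp2s), 2.50 (Cyp2u), 2.19 (Cyp4a), 1.15 (Cyp4b), 1.72 (Cyp4v) and 0.441 (Cyp4x), and that of Cyp4f turned from 1.10 to 0.809. With single libraries left out, chosen after seeing the data, the ratios ran from 4.28 to 11.4 (Cyp2b), 2.39 to 3.24 (Cyp2d), 2.85 to 6.44 (Cyp2g) and 2.84 to 6.48 (Cyp3a), and the others moved by less than that spread. Over all 62 members, 18 with a positive log2 fold change turned negative after centring and 5 when scaled by total reads (Cyp2d11, Cyp2j6, Cyp2j9, Cyp4f16 and Cyp4f18). Cyp2c69 turned without Prox1 OE replicate 3 and, with the same value (-0.17), under the block, which also leaves out that library. Without Control replicate 1 the sign of 5 members turned (Cyp2d11, Cyp2j8, Cyp2j9, Cyp2j13 and Cyp4f16), without Prox1 OE replicate 1 that of 2 and without replicate 2 that of 3 of these. Among the genes of the naming rule, the sign of Cyp3a41a turned with DESeq2 (0.25), edgeR (0.26) and without Prox1 OE replicate 1 (0.05) or 2 (0.21; -1.18 without replicate 3), that of Cyp4f18 when scaled by total reads (-0.054) and after centring (-1.02), and after centring also those of Cyp2j5 (-0.65), Cyp3a13 (-0.40), Cyp4b1 (-0.76) and Cyp4v3 (-0.19). The causes were not tested. Over 32 genes and 541 values under alternatives, 478 kept their direction and their side of the threshold, 43 no longer passed, 10 newly passed and 10 changed sign.

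The labels number replicates within groups without tying them to a shared batch, and deviations of same-numbered libraries correlated at 0.14 and 0.02 over 2 pairs, so the numbers are not taken as pairs. A block for the replicate number was fitted on replicates 1 and 2 only, which leaves out Prox1 OE replicate 3. In that fit 5246 genes were called, with 46 members higher and 2 lower and a median of 1.25. Cyp2a22, Cyp2c37, Cyp2c40, Cyp2c50 and Cyp2c54 were gained and Cyp4f39 was lost. Without Prox1 OE replicate 3 and without a block, the genes gained had the same log2 fold changes and none of them passed.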
